A study of Mus musculus with 8 samples.

Results

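The 4 pancreatic tumors grown in wild-type (WT) hosts, chosen by the genotype in their labels, were 4 of the 8 tumors in the series. The question addressed was what these tumors expressed and how far they differed from one another. Hosts were male C57BL/6J mice, 12 weeks old, and received 250000 cells of the mouse pancreatic cancer line KPC FC1245 in 50 µL of PBS into the tail of the pancreas. The study endpoint was day 14. FC1245 came from 1 tumor of a mouse whose alleles included LSL-Trp53 R172H/+ and Pdx-1-Cre, in which Cre is driven by a pancreatic progenitor promoter, so every tumor shared 1 cancer cell source and differed by host. The host genome carried none of these alleles. The other 4 tumors of the series, from C3-/- hosts, were not compared here.

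Pancreatic ductal adenocarcinoma is an epithelial cancer with ductal keratins, and in KPC tumors the cancer cells lie in a stroma of fibroblasts, collagen and macrophages. A piece of such a tumor in the pancreas can also hold exocrine pancreas, islets, fat or other host tissue next to it. RNA of the whole piece was pooled and selected for poly-A tails, so a level is the sum over all cells present, and fewer cells of a type cannot be told apart from less RNA per cell.

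Counts summed to between 13266029 and 23354212 per tumor. Between 22174 and 25343 of the 29968 genes in the table had a count in a given tumor. Levels of different genes were compared as FPKM, the count per kilobase of gene model and of sequencing depth, and the spread of a gene between tumors as the SD of its log2 CPM (CPM, counts scaled to a common library total with TMM factors). No pair of tumors was a repeat of 1 library: the chi-square of their counts was 23.2 to 72.0 per gene in the 6 pairs, where sampling noise alone gives 1. Across 15215 genes, Spearman's rho between tumors ranged from 0.955 to 0.984, a description across genes that are not independent. By rho the closest pair was tumors 1 and 4, and by the median log2 difference tumors 1 and 2. Each of the 3 pairs with tumor 3 had a larger median log2 difference (0.35 to 0.37) than any other pair (0.20 to 0.24).

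The most abundant transcripts came from mitochondrial genes, from the translation machinery, and from secreted and epithelial genes of the tumor. By mean FPKM the leader was mt-Co1, a subunit of cytochrome c oxidase, at 5445, 4776, 4425 and 5849 FPKM in tumors 1 to 4 (mean 5124 ± 642, SD, n = 4). Clu, on chromosome 14 of mm39 from 66205932 to 66218996, encodes the secreted chaperone clusterin, an inhibitor of the terminal complement complex. Its levels were 3448, 3494, 5354 and 3090 FPKM. Spp1 encodes osteopontin, a secreted matrix protein of macrophages and carcinoma cells, and lies on chromosome 5 from 104582984 to 104588916. It was listed at 3105, 3544, 5010 and 3416 FPKM. In both genes tumor 3 was the highest, and the other 3 tumors lay closer to one another than to it. The elongation factor gene Eef1a1 followed at 3046 ± 503 FPKM (SD, n = 4).

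Translation genes made up a large part of the leading 20. Besides Eef1a1, 5 ribosomal protein genes were among them: Rplp1 (2013 ± 589 FPKM), Rps3a1 (1952 ± 577), Rplp0 (1386 ± 292), Rpl41 (1258 ± 450) and Rpl8 (1072 ± 260; SD, n = 4 for each). Krt8 and Krt18, the paired keratins of simple epithelia, both on chromosome 15, had 1375 ± 291 and 1289 ± 384 FPKM (SD, n = 4). The calcium-binding S100a11 and S100a6 reached 2219 ± 829 and 1088 ± 438 FPKM, and the galactoside-binding lectin gene Lgals1 reached 1031 ± 295 FPKM (SD, n = 4). Cytoskeletal genes were represented by Actb at 1115 ± 324 FPKM and by the actin-sequestering Tmsb10 at 1242 ± 522 FPKM (SD, n = 4). Of the 20 genes, 15 were highest in tumor 3, as were 35.6% of all 15215 genes with a mean CPM of at least 1, and 5 in tumor 4. Their SD of log2 CPM ran from 0.19 to 0.63, with a median of 0.37, against a median of 0.22 over all 10324 genes with a mean CPM of at least 10.

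**Figure D1:**
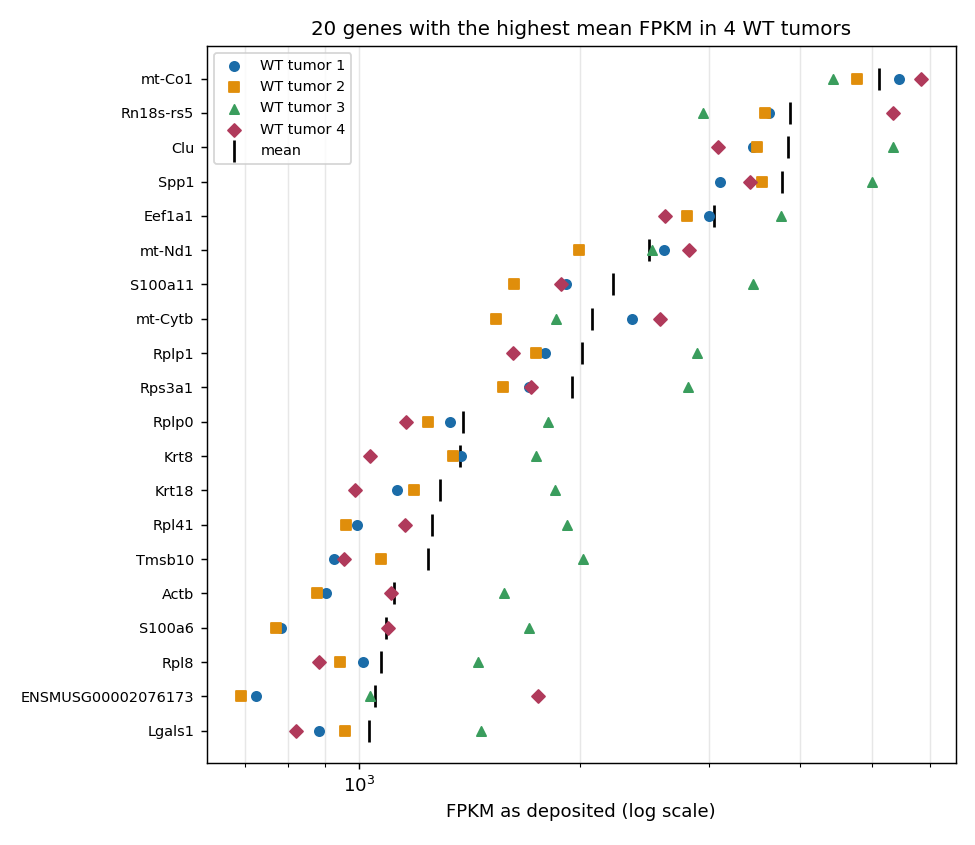
FPKM as deposited (log axis) of the 20 genes with the highest mean, 1 point per WT tumor and a bar at the mean. For 15 of the 20 genes the triangle of tumor 3 lies to the right of the other tumors.

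Of the leading 20, 2 were not protein-coding. Rn18s-rs5, annotated as a sequence related to 18S ribosomal RNA on chromosome 17 from 40157244 to 40159092, had 3623, 3579, 2943 and 5344 FPKM, highest in tumor 4. The 57-base miRNA gene ENSMUSG00002076173, named Gm55118 in GENCODE vM39, lies on chromosome 16 from 10961989 to 10962045. It lies in an intron of Zc3h7a, which is on the opposite strand, and inside an exon of the lncRNA Gm61125 on its own strand. Its 724, 690, 1037 and 1756 FPKM rest on very few bases: it held 0.01% of counts, and FPKM divides by length. The median length of the leading 20 was 1363 bases, against 4144 bases over all genes with a mean CPM of at least 1.

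Ranking by share of counts, which is not corrected for length, moved long matrix genes up. Clu led with 1.31 ± 0.29% of counts (SD, n = 4), followed by mt-Co1 (0.79 ± 0.12%), Eef1a1 (0.75 ± 0.10%), Rn18s-rs5 (0.72 ± 0.21%) and Spp1 (0.61 ± 0.11%). Col1a1, the main chain of type I collagen, was next at 0.39 ± 0.10% of counts, and Fn1, fibronectin, held 0.30 ± 0.04% (SD, n = 4). The 100 leading genes of a tumor held 16.7, 16.9, 19.2 and 16.7% of its counts in tumors 1 to 4. As few as 1007 genes held 50% of the counts in tumor 3, and 1194, 1195 and 1221 did so in tumors 1, 2 and 4. Of the top 20 genes by FPKM of each tumor, 16 were shared by all 4 tumors, and of the top 100, 77.

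A mean of at least 1 FPKM was reached by 13632 genes, of at least 10 by 5384, of at least 100 by 438 and of at least 1000 by 21. In every tumor separately, 12177 genes reached 1 FPKM, and 12 reached 1000. Tumor 3 had 28 genes at 1000 FPKM or more, against 15, 15 and 16 in tumors 1, 2 and 4, although it had the fewest genes with a count.

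Tumor tissue was checked against its markers. The 10 epithelial genes all passed a mean CPM of 10, led by Krt8, Krt18 and the ductal keratin Krt19 (622, 707, 694 and 373 FPKM). Cdh1, the adherens junction cadherin of epithelia, had 226 FPKM on average, and Epcam, an epithelial surface protein, 92.2. Mesenchymal genes were present beside them. Vim, the intermediate filament of mesenchymal cells, was listed at 482, 505, 510 and 429 FPKM, and Sparc, a matrix glycoprotein, at 344, 523, 531 and 478 FPKM. Msln, mesothelin, a surface protein of mesothelium and of ductal pancreatic cancer, had 155, 171, 177 and 155 FPKM, while the other mesothelial genes Wt1, Upk1b and Upk3b had means of 1.87, 1.67 and 1.12 FPKM.

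Stromal and myeloid genes were also present, below Krt8 and Krt18 in mean FPKM except for Spp1. The 13 fibroblast genes together held 0.847, 1.14, 0.740 and 1.11% of counts, led by Col1a1 (509, 778, 454 and 611 FPKM), Col3a1 (226, 292, 232 and 329 FPKM) and Col1a2 (150, 201, 134 and 200 FPKM). In all 3 genes tumors 2 and 4 were the higher pair. The 11 macrophage genes held 0.757, 0.876, 1.05 and 0.792% of counts, of which Spp1 was the largest part. Apoe, the lipid carrier, had 475 ± 119 FPKM, the lysozyme gene Lyz2 had 415 ± 56.4 FPKM and the complement gene C1qa had 149 ± 36.1 FPKM (SD, n = 4). Endothelial genes were lower, with Plvap at 39.6 ± 9.18 FPKM and the junction gene Cdh5 at 14.1 ± 3.12 FPKM (SD, n = 4). Transcripts of C3, the central complement component, were present in these tumors at 40.7, 82.2, 43.4 and 62.3 FPKM.

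T and NK cell genes were nearly absent. The 9 T and NK cell genes summed to 53, 32, 37 and 38 counts in tumors 1 to 4. Only the T cell receptor segment Trac passed a mean CPM of 1, and Cd3e, Cd3d and Cd3g, which encode the CD3 chains, had means of 0.03, 0.01 and 0.06 FPKM. Of the 7 B and plasma cell genes, 3 passed: Ighm (60.7, 5.77, 75.0 and 22.6 CPM), Igkc (30.8, 4.81, 48.0 and 11.5 CPM) and Jchain (6.47, 0.74, 6.82 and 2.14 CPM), which encode the chains of secreted immunoglobulin. All 3 were highest in tumor 3, followed by tumor 1, and lowest in tumor 2.

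Protein-coding genes held 97.1, 97.2, 97.3 and 96.8% of counts, a mean of 97.1 ± 0.21% (SD, n = 4), from 17424 of the 29968 genes. Long non-coding RNAs (lncRNAs), with 5864 genes in the table, held 1.09 ± 0.11%. Genes annotated as rRNA held 0.716 ± 0.208%, nearly all of it Rn18s-rs5, and were highest in tumor 4 (1.01%) and lowest in tumor 3 (0.514%). Processed pseudogenes held 0.640, 0.644, 0.898 and 0.651% of counts, with tumor 3 apart from the other tumors. Transcribed processed pseudogenes held 0.104 ± 0.026% (SD, n = 4). Unverified transcript models (the TEC class) held 0.088 ± 0.020%, the 2 mitochondrial rRNA genes 0.076 ± 0.014%, and all small RNA classes together 0.022 ± 0.005% (SD, n = 4 for each).

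**Figure D2:**
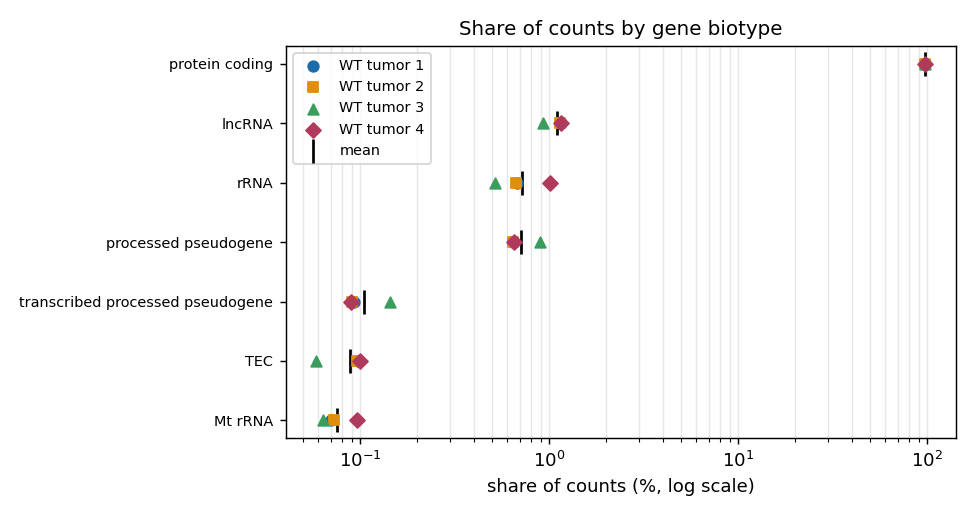
Share of counts (%, log axis) of the 7 biotypes with the most counts, 1 point per WT tumor and a bar at the mean. Protein-coding genes hold about 97.1%, and tumor 3 is highest for both pseudogene classes and lowest for lncRNA and rRNA.

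The weight of the classes depended on the unit. By sum of FPKM, which counts transcripts per length, protein-coding genes held 91.1 ± 0.55% and processed pseudogenes 4.25 ± 0.57% (SD, n = 4). The leading processed pseudogenes were Gm14303, a model of 171 bases (373, 415, 1073 and 674 FPKM), Gm15427 (406, 387, 633 and 296 FPKM) and Gm9794 (363, 360, 598 and 425 FPKM). Rps7-ps3, a copy of the ribosomal protein gene Rps7, led the transcribed processed pseudogenes at 353, 355, 703 and 359 FPKM. A processed pseudogene shares its sequence with a parent gene, so how reads were divided between the pair is uncertain here.

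Among lncRNAs the leader was Malat1, a nuclear speckle RNA, at 148, 151, 60.6 and 132 FPKM, on chromosome 19 from 5845717 to 5852704. Tumor 3 had less than 50% of the level of any other tumor. Norad, an RNA that binds Pumilio proteins, was steadier, with 66.7, 59.2, 64.2 and 56.8 FPKM and an SD of log2 CPM of 0.10. A pair of less known lncRNA genes were as steady: Gm20186 at 73.9, 83.6, 80.6 and 76.7 FPKM, with an SD of log2 CPM of 0.08, and ENSMUSG00000120992 at 115, 116, 120 and 101 FPKM, with an SD of 0.10. Xist, the RNA of the inactive X chromosome, was listed at 70.2, 68.8, 35.5 and 60.8 FPKM in these tumors of male hosts; the sex of the cell line's source is not given in the sources used here. The other 5 of the 10 leading lncRNAs, Gm49980, Gm10076, ENSMUSG00000121141, ENSMUSG00000121069 and Gm49172, had means of 103, 82.7, 70.1, 61.1 and 55.6 FPKM. Gm49172 overlaps Ano6 on the opposite strand, and the strand setting of the count is not given in the sources used here.

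The 32 genes of the mitochondrial chromosome held 1.83, 1.46, 1.45 and 2.05% of counts, with tumors 1 and 4 the higher pair. Levels of the 13 protein-coding genes were very unequal: mt-Nd1 and mt-Cytb, of complexes I and III, had 2484 ± 351 and 2080 ± 470 FPKM, whereas mt-Co2 and mt-Atp6 had 219 ± 59.0 and 120 ± 38.1 FPKM and mt-Atp8 had 1.26 FPKM (SD, n = 4). mt-Co3 was the least even of those above 100 FPKM, at 94.9, 83.1, 183 and 369 FPKM. Nuclear copies of mitochondrial sequence can take up such reads, and their part in these levels was not tested.

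Between tumors, most genes differed little. Over the 15215 genes with a mean CPM of at least 1, the median SD of log2 CPM was 0.26, and 10% of genes had an SD of at least 0.64. An SD from 4 values is imprecise: its 95% interval runs from 0.566 to 3.73 times the estimate under normal errors. Spread fell with level, from a median of 0.50 at 1 to 3 CPM to 0.19 at 100 to 300 CPM, where counting error alone gives 0.30 and 0.03, and was 0.24 in the 481 genes at 300 CPM or more. An SD of at least 1, called variable here, was found in 574 genes (3.77% of 15215), or in 213 of 14690 (1.45%) where every tumor had to have 10 counts. Of the 15215 genes, 18.9, 23.4, 35.6 and 22.1% were highest in tumors 1 to 4, the background for each count of members highest in a given tumor. At most 0.15, called stable, was found in 2605 of the 10324 genes with a mean CPM of at least 10 (25.2%). Tumor 3 decided much of that count, which was 5220 without it. By biotype, 3.47% of protein-coding genes, 5.95% of lncRNAs and 12.5% of TEC genes that passed the filter were variable.

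**Figure D3:**
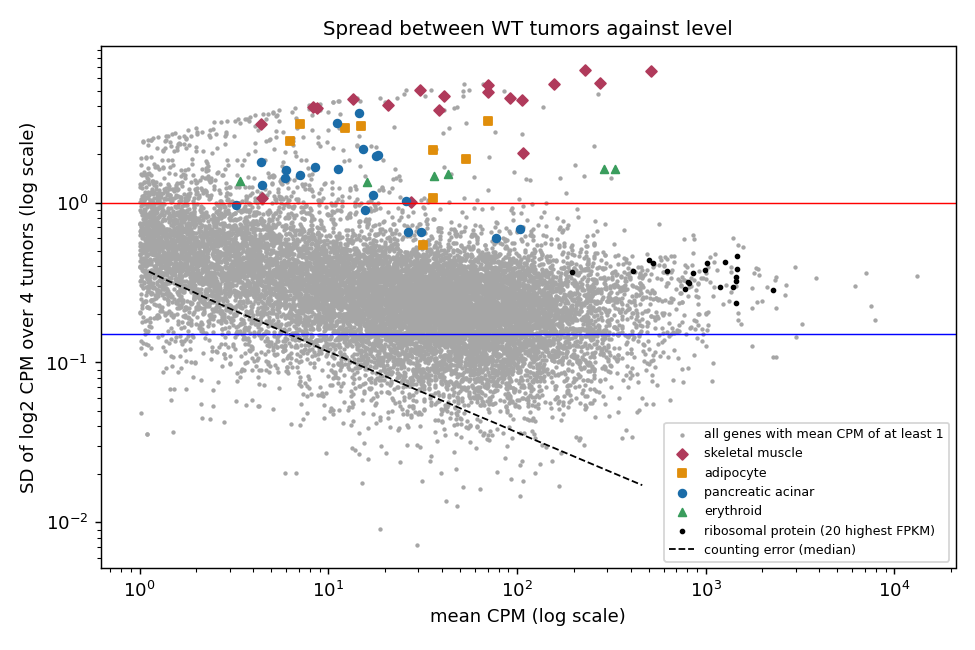
SD of log2 CPM over the 4 WT tumors against mean CPM (log axes), 1 point per gene, with lines at SDs of 1 and 0.15 and the median counting error dashed. Skeletal muscle, adipocyte, acinar and erythroid genes lie mostly above the upper line, and the ribosomal protein genes with the highest FPKM lie between the lines.

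Skeletal muscle transcripts had the largest SDs, in genes that passed the filter through tumors 1 and 4 alone, so that a large SD was fixed by the filter and its size depends on the prior count. The 25 genes with the largest SD among those with a mean CPM of at least 10 were each high in tumors 1 and 4 and at or near 0 in tumors 2 and 3. Myh4, the fast IIb myosin heavy chain, had 220, 0, 0 and 698 CPM. Acta1, skeletal actin, had 758, 0.52, 0.07 and 1287 CPM, and in tumor 4 it had 838 FPKM beside 1106 FPKM of Actb. By known role, the contractile genes among them included Myh1, Myh2, Myl1, Mylk2, Mybpc1, Mybpc2 and the troponin gene Tnnt3 (161, 0.30, 0.22 and 468 CPM), and the genes of the sarcomere frame or of proteins bound to it included Ttn, Myot, Nrap, Lmod2, Actn2, Actn3, Myom2, Xirp2, Igfn1, Myo18b and Ankrd2. Others were Atp2a1, the calcium pump of the sarcoplasmic reticulum (305, 0.37, 0.74 and 800 CPM), the creatine kinase gene Ckm (88.1, 0.22, 0 and 192 CPM), the ubiquitin ligase gene Trim63 (66.6, 0.07, 0 and 219 CPM) and Eef1a2, the elongation factor form of muscle and neurons (42.3, 0.07, 0 and 97.6 CPM).

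Promoter sequence is shown for 4 variable genes, a pair from muscle, 1 of the exocrine pancreas and 1 of fat, each the last 80 bases before the RefSeq start, written 5′ to 3′ on the gene's strand (GRCm38.p6). Capitals mark TATAAA on the sense strand and CCAAT or GGGCGG on either strand. Acta1 is at chr8:123894776-123894855 on the minus strand, Myh4 at chr11:67237732-67237811, Pnlip at chr19:58670285-58670364 and Adipoq at chr16:23146456-23146535, all 3 on the plus strand.
Acta1: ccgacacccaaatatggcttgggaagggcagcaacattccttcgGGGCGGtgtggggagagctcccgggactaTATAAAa
Myh4: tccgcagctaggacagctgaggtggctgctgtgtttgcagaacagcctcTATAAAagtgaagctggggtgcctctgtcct
Pnlip: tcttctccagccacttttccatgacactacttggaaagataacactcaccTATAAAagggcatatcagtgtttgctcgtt
Adipoq: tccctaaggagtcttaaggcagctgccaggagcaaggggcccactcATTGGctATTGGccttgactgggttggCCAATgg
TATAAA began 31 bases before the start in Myh4, 30 in Pnlip and 7 in Acta1, and was not found in the Adipoq window, which held CCAAT on either strand in 3 places. Among all 32851 promoters of the RefSeq table, the same 80 bases held TATAAA in 3.37%, CCAAT in 15.3% and GGGCGG in 22.1%. A match is a description of the letters only.

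The full skeletal muscle list showed the same order of tumors. Its 20 genes held 0.222, 0.00314, 0.00447 and 0.510% of counts in tumors 1 to 4, and 19 of them passed the filter, every one highest in tumor 4, while 1 had no count in any tumor. All 19 had an SD of at least 1 (median 4.44). A mean of 1 CPM is reached here through tumors 1 and 4 alone for most of them, so this count is no support for the list: only 3 of the 20 had at least 10 counts in every tumor. On the log2 scale, tumor 4 exceeded tumor 1 by a median of 1.39 over the 15 members with a mean CPM of at least 10 (range 0.49 to 1.86), higher in 15 of 15. The same order held for 69 of the 72 variable genes at that level that lay above their mean in tumors 1 and 4 (median 1.30), so it was not particular to the list. Of all 574 variable genes, 227 lay above their own mean in tumors 1 and 4 and below it in tumors 2 and 3, a share of 39.5% against 10.5% of all 15215 genes. Tumor 4 was the highest for 284 of the 574 (49.5%, against 22.1% of all genes) and tumor 3 the lowest for 267 (46.5%, against 33.0%).

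Exocrine pancreas transcripts were present in every tumor and followed another order. The 20 acinar genes, which encode digestive enzymes and their partners, held 0.0732, 0.0274, 0.0440 and 0.0251% of counts, and 18 of the 20 were highest in tumor 1. Ctrb1, chymotrypsinogen B1, was the most abundant at 188, 91.2, 135 and 62.6 FPKM, followed by Prss2 (59.6, 37.7, 36.8 and 19.6 FPKM), Cela1 (46.1, 18.4, 41.4 and 28.5 FPKM) and Try5 (22.2, 34.1, 35.7 and 13.5 CPM). None of these 4 had an SD of 1. Of the 14 variable members, 12 were lowest in tumor 2, as were 24.7% of all genes and 35.4% of all variable genes. Pnlip, pancreatic lipase, had 40.2, 0, 10.9 and 7.19 CPM, and Try4, a trypsinogen, had 24.5, 0.07, 13.6 and 6.52 CPM. With at least 10 counts in every tumor, 11 of 17 acinar genes had an SD of at least 1, against 1.45% of all genes under that filter. Members of the trypsinogen family are near-identical copies, so their separate counts are uncertain.

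Islet and fat transcripts were highest in tumor 2. The islet list, hormones and granule proteins of endocrine cells, summed to 14, 1452, 46 and 33 counts. Ins2, the insulin gene, had 0.06, 31.4, 0.07 and 0 CPM, Iapp, amylin, had 0.12, 14.7, 0 and 0 CPM, Ins1 had 0, 14.4, 0.15 and 0 CPM, and Chga, chromogranin A, had 0.31, 22.4, 2.67 and 0.67 CPM. Adipocyte genes held 0.00988, 0.0760, 0.00656 and 0.0169% of counts, and all 9 that passed were highest in tumor 2. Cfd, the adipokine complement factor D, had 9.51, 176, 14.1 and 36.2 FPKM, Car3, a carbonic anhydrase of fat and muscle, had 5.49, 80.1, 0.31 and 13.4 FPKM, and Adipoq, adiponectin, had 1.17, 32.2, 0.16 and 2.13 FPKM. Cidec, a lipid droplet protein, was less uneven at 23.5, 84.3, 20.3 and 16.0 CPM. Of the 12 islet genes 7 passed the filter, through tumor 2 alone, and none had 10 counts in every tumor, while 5 of the 10 adipocyte genes did.

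Liver and blood transcripts were each high in another tumor. Of the 12 hepatocyte genes that passed, 10 were highest in tumor 4, as were 22.1% of all genes. Alb, albumin, had 5.67, 0.15, 4.30 and 35.3 CPM and Hpx, hemopexin, 1.66, 0.96, 4.74 and 15.3 CPM. Several members passed the filter through tumor 4 alone, such as Fgg (0.31, 0, 0.89 and 8.20 CPM) and Serpina1b (0.18, 0, 0.82 and 3.95 CPM). For these the order was fixed by the filter. With at least 10 counts in every tumor, 3 of 6 hepatocyte genes were variable. Ttr, the thyroxine carrier, was stable in contrast (14.4, 14.4, 11.9 and 12.2 CPM). Erythroid genes held 0.0158, 0.0306, 0.196 and 0.0372% of counts, and all 6 were highest in tumor 3. The globin genes Hbb-bs (89.8, 159, 1247 and 240 FPKM) and Hba-a1 (78.7, 163, 1055 and 145 FPKM) placed tumor 3 above the others. The 6 tissue lists together, muscle, acinar, islet, hepatocyte, adipocyte and erythroid, held 0.325, 0.151, 0.256 and 0.604% of counts and 63 of the 574 variable genes. These were 63 of the 73 list genes that passed the filter, against 3.77% of all genes. Most muscle genes and the islet genes passed only through the tumors where they were high, so this share is no support for the lists. How much adjoining tissue each piece held was not tested.

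**Figure D4:**
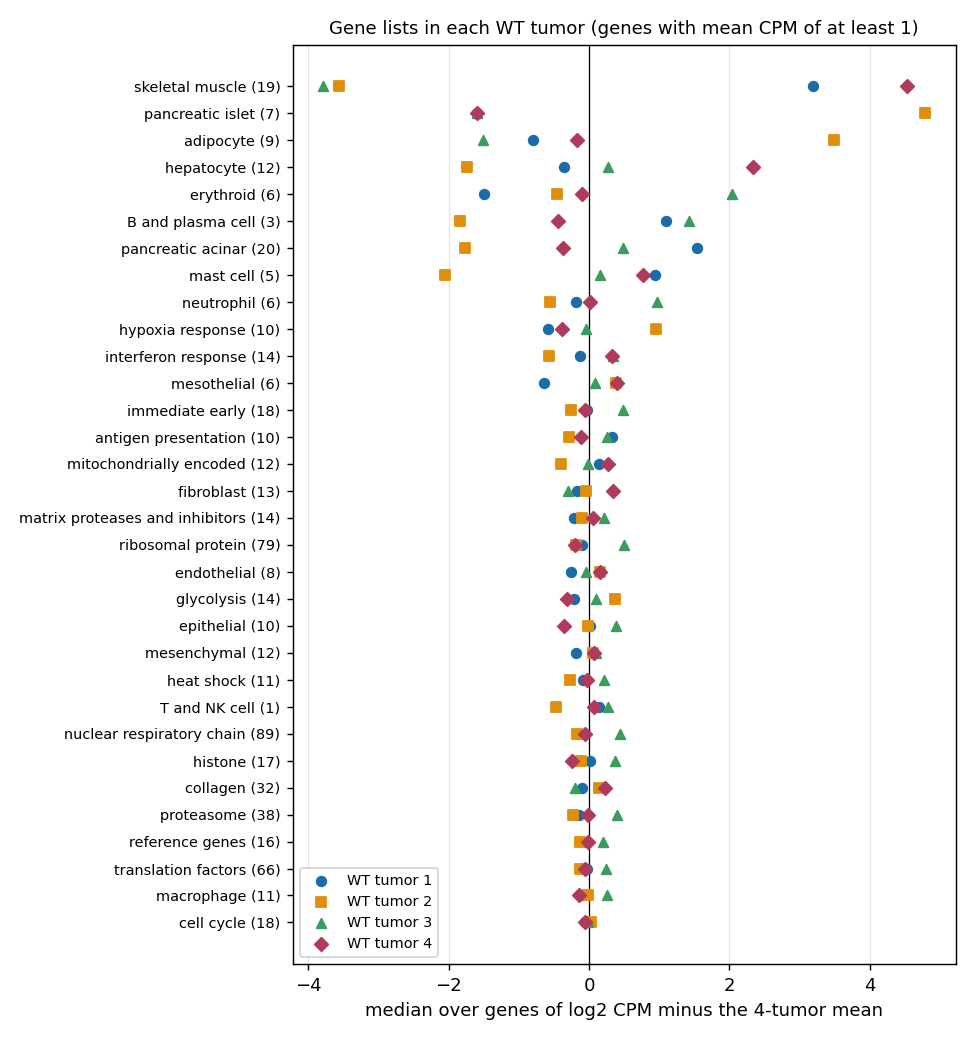
Median over the genes of each list (number in brackets) of log2 CPM minus the mean of the 4 WT tumors, 1 point per tumor, lists ordered by median SD. Muscle separates tumors 1 and 4 from tumors 2 and 3, islet and adipocyte genes mark tumor 2, erythroid genes mark tumor 3, and cell cycle genes lie near 0 in every tumor.

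Genes of the hypoxia response stood higher in tumor 2 throughout. These genes are switched on by HIF transcription factors at low oxygen, and the 10 listed members held 0.0814, 0.220, 0.101 and 0.0878% of counts, each highest in tumor 2. Egln3, a prolyl hydroxylase, had 89.7, 313, 144 and 106 CPM, Vegfa, the angiogenic growth factor, 166, 444, 196 and 210 CPM, and Car9, a surface carbonic anhydrase, 73.5, 171, 106 and 70.5 CPM. Ndrg1, a stress-induced gene, had 183, 498, 215 and 148 CPM. In each, tumor 2 stood alone above the other 3 tumors. Their median SD was 0.75, and 1 of 10, against 3.77% of all genes, was variable: Adm (adrenomedullin; 5.18, 41.4, 17.6 and 13.0 CPM). Glycolysis genes had a smaller spread (median SD 0.35), and 8 of 14 were highest in tumor 2, as were 23.4% of all genes. Ldha, lactate dehydrogenase A, had 268, 383, 383 and 253 FPKM and Pgk1 had 242, 364, 400 and 281 FPKM, with tumors 2 and 3 above tumors 1 and 4. Pkm followed the same order (350, 442, 477 and 337 FPKM), whereas the aldolase gene ENSMUSG00000030695 did not (292, 329, 336 and 364 FPKM).

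Smaller immune and stress lists also differed between tumors. Of the 5 mast cell genes that passed, 4 were highest in tumor 1 and Kit, a receptor that other cells also carry, in tumor 2. The 3 variable ones, of 5 and against 3.77% of all genes, were lowest in tumor 2. Tpsb2, a tryptase, had 8.57, 0.22, 5.04 and 6.73 CPM, and the chymase Cma1 had 4.56, 0.37, 2.30 and 3.83 CPM. Only 2 mast cell genes had at least 10 counts in every tumor, and neither was variable, so these SDs rest on few counts in tumor 2. Of the 6 neutrophil genes that passed, 5 were highest in tumor 3, as were 35.6% of all 15215 genes, among them S100a9 (19.4, 10.5, 53.5 and 23.4 FPKM) and S100a8 (14.9, 7.97, 34.6 and 18.3 FPKM), the subunits of calprotectin. The median length of this list was 850 bases, in the range of lengths where the median of all genes was 0.33 higher in tumor 3 than its 4-tumor mean (log2 scale). Interferon-induced genes were low, with Bst2 the highest at 38.5, 38.1, 61.8 and 48.6 FPKM and Isg15 at 2.48, 2.87, 7.21 and 4.90 FPKM. Of these 14 genes, 9 were highest in tumor 4 (22.1% of all genes were) and 5 in tumor 3, the latter at the share of all genes, 35.6%. Cd74, the invariant chain of class II antigen presentation, ran from 24.6 to 77.7 FPKM, while the class I heavy chain gene H2-D1 was stable at 109, 107, 114 and 99.5 FPKM. Among protein-folding genes, Hspa1a, the inducible Hsp70, was variable (4.01, 7.18, 13.1 and 28.2 CPM) and Hsp90ab1 was stable (843, 767, 850 and 725 FPKM).

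Matrix and remodelling genes had median SDs of 0.31 (collagens) and 0.37 (proteases and inhibitors), against 0.26 over all genes. Of the 32 collagen genes that passed the filter, 2 (6.25%, against 3.77% of all genes) were variable, Col10a1 and Col6a5. Of the 21 with a mean CPM of at least 10, 3 (14.3%, against 25.2%) were stable: the type IV chains Col4a1 (126, 152, 126 and 138 FPKM) and Col4a2, and Col6a1. Timp1, an inhibitor of matrix proteases, had 98.7, 157, 354 and 184 FPKM, highest in tumor 3, whereas Timp2 was among the stable genes at 140, 149, 135 and 148 FPKM. Mmp3, stromelysin, was the variable member of the 14 proteases and inhibitors. Dpt, a dermal matrix protein, was the variable member of the fibroblast list, at 6.42, 5.46, 2.07 and 13.6 FPKM.

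Over the 4 tumors, cell cycle genes had the lowest median SD of the 32 lists (0.17). Without tumor 3 it was 0.15, as over all genes, 8 of 18 (44.4%) were stable against 50.6% of all genes, and ribosomal protein genes were lower, at 0.10. Their 18 members held 0.179, 0.195, 0.176 and 0.179% of counts. None was variable and 7 of 18 (38.9%) were stable, against 25.2% of all genes: Plk1, Ccnb1, Bub1, Rrm2, Ccna2, Mcm2 and Mcm5, which serve DNA replication and mitosis. Plk1, a mitotic kinase, had 34.2, 30.8, 28.8 and 28.7 FPKM, and Rrm2, which makes deoxynucleotides, 43.7, 51.9, 42.9 and 44.6 FPKM. Macrophage genes had the median SD of all genes, 0.22, and 1 of 11 (9.09%) was stable. Without tumor 3, 8 of the 11 (72.7%) were stable, against 50.6% of all genes. The transcription factor genes Sox9, of ductal cells, and Twist1, of mesenchymal cells, were stable as well, Sox9 at 146, 128, 134 and 132 CPM and Twist1 at 30.2, 33.3, 27.5 and 28.8 CPM.

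Among the 20 genes with the smallest SD, Creg1, a secreted lysosomal glycoprotein, had 29.6, 29.7, 29.3 and 29.6 CPM. Mast2 (a microtubule-associated kinase; 103, 105, 104 and 103 CPM), Ppm1a (a protein phosphatase; 166, 169, 170 and 166 CPM) and Kif23 (a kinesin of cytokinesis; 123, 123, 127 and 126 CPM) were among the deepest. The others were Tbc1d12, 1810030O07Rik, Ctdspl, Pla2g4a, Frk, Med9, Tbc1d20, Vangl2, Fam8a1, Nkiras2, Ppp2r5d, Rsrc1, Hnrnpa3, Git1, Atpaf2 and Tmem41b. All 20 had an SD (0.01 to 0.02) below the counting error for their depth (0.03 to 0.09), so their order among the stable genes is not resolved at this depth. Of the 2605 stable genes, 256 were below their counting error. At a mean CPM of at least 100, where counting error is small, 705 of 2379 genes (29.6%) were stable, and Sec31a (231, 225, 220 and 228 CPM), Rab14 (212, 210, 210 and 220 CPM) and Glud1 (420, 400, 399 and 402 CPM) had SDs of 0.03 above their counting errors of 0.02. These 3, a coat protein of vesicles, a trafficking GTPase and a mitochondrial enzyme, were chosen after their values were seen.

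Of 16 genes commonly used as references, 3 (18.8%, against 25.2% of all genes) were stable, Sdha, Gusb and Tbp. Without tumor 3 the number was 8, or 50.0% against 50.6%. Actb had 901, 878, 1576 and 1106 FPKM and Rplp0 had 1333, 1241, 1812 and 1160 FPKM, both highest in tumor 3. Their SDs of log2 CPM, 0.39 and 0.28, were above the median of all genes, 0.22.

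Tumor 3 was the highest for most members of several large gene groups, against 35.6% of all 15215 genes. The 80 ribosomal protein genes held 4.53, 4.29, 6.37 and 4.21% of counts, and 75 of the 79 that passed were highest in tumor 3. None of 76 was stable. The variable one, Rpl3l, is the muscle form, with 2.22, 0.07, 0 and 7.11 CPM. Nuclear respiratory chain genes gave 83 of 89 highest in tumor 3, with Cox4i1 at 254, 257, 400 and 237 FPKM, and the variable pair Cox6a2 and Cox8b are muscle forms. Proteasome genes gave 35 of 38, with Psma6 at 130, 127, 210 and 131 FPKM. Translation factors gave 41 of 66, and 9 of 60 were stable, a smaller share than the 25.2% of all genes, among them Eif4a2, Eif3a and Eif5. That comparison turned on tumor 3: without it 35 of the 60 (58.3%) were stable, against 50.6% of all genes. Immediate early genes, which answer growth and stress signals within minutes, gave 13 of 18, and of the 16 with a mean CPM of at least 10 the stable ones were Jun and Myc. Histone genes gave 12 of the 17 that passed, of 75 in the table, and none of the 10 with a mean CPM of at least 10 was stable.

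Gene length moved with this difference. The median length was 1550 bases in the respiratory chain list, 1775.5 in the ribosomal protein list and 3670.5 among translation factors. Across the 10324 genes with a mean CPM of at least 10, the deviation of tumor 3 from the 4-tumor mean had Pearson's r of -0.44 with log2 gene length, against 0.20, 0.16 and 0.19 in tumors 1, 2 and 4, a description across genes that share each library. In the shortest of 5 equal bins of length (57 to 2642 bases) the median deviation of tumor 3 was 0.33 on the log2 scale, and in the longest bin (8063 to 123179 bases) it was -0.25. Tumors 1, 2 and 4 lay between -0.13 and 0.10 in every bin. By GC content of the longest transcript the medians of all 4 tumors lay between -0.11 and 0.09. When the length trend of each tumor was subtracted, 17 of the 76 ribosomal protein genes and 30 of the 78 respiratory chain genes were stable, in place of 0 and 2, that is 22.4 and 38.5% against 34.2% of all genes. Without tumor 3 these numbers were 55 and 46, and 5226 of the same 10324 genes (50.6%) had an SD of at most 0.15 over the other 3 tumors. Of the 60 translation factors, 23 (38.3%) were stable with the length trend subtracted and 35 (58.3%) without tumor 3. Whether the length trend of tumor 3 reflects its cells, its RNA or its library was not tested.

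**Figure D5:**
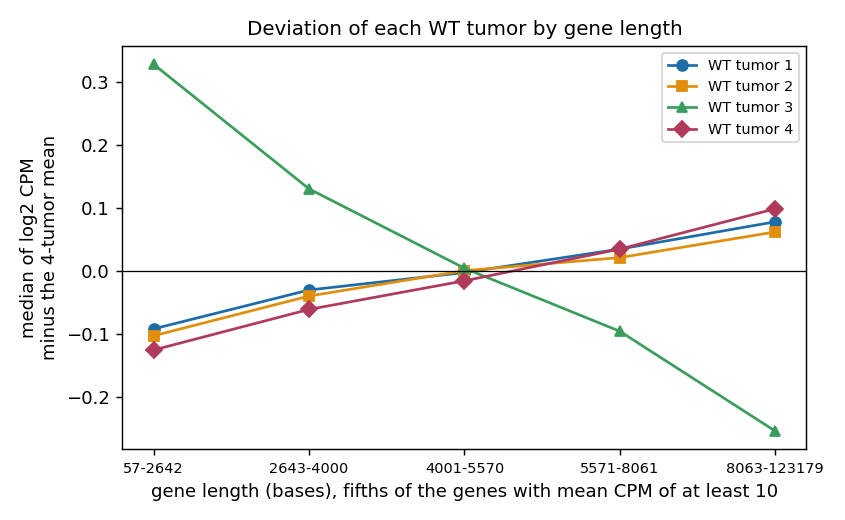
Median of log2 CPM minus the 4-tumor mean in 5 equal bins of gene length (bases), 1 line per WT tumor. Tumor 3 falls from 0.33 in the shortest bin to -0.25 in the longest, while the other 3 tumors stay between -0.13 and 0.10.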

How the data were processed

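RNA of the tumors was poly-A selected and sequenced as read pairs of 150 bases. Reads were aligned to mm39. The study's methods name STAR and HTSeq, whereas the submitters' processing notes name HISAT2 2.0.5 and DESeq2 1.20.0, and the strand setting is not given in the sources used here. The authors deposited raw counts per gene, FPKM values, size-factor-normalized counts (a signal), gene lengths (other), and their own log2 fold changes and p-values between genotypes. The authors' fold changes, p-values and normalized signal were not used. The authors' FPKM equalled the count over length and over 0.945 to 1.02 times the tumor's total. Length is that of the whole gene model, so genes with long annotated isoforms have a lower FPKM and very short ones a high one.

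Only the deposited counts and FPKM of the 4 WT tumors were used. Log2 CPM used edgeR 4.0.16 TMM factors (0.95 to 1.02, R 4.3.3) and a prior count of 2. Variable genes had an SD of at least 1 with a mean CPM of at least 1, and stable genes an SD of at most 0.15 with a mean CPM of at least 10. No p-value was computed, since there is 1 group. Nothing says more of the samples than that they are separate tumors.

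Named genes are the 20 with the highest mean FPKM, the 10 leading lncRNAs, the 3 leading genes of biotypes holding at least 0.1% of counts, the 25 largest and 20 smallest SDs at a mean CPM of at least 10, the 4 most abundant members of each of 32 gene lists, and members that a count turns on. C3, Sec31a, Rab14, Glud1 and the few other genes outside this rule were chosen with their values seen. Some items are not reported here. The lists and genes were chosen with earlier results of these data known. A comparison of promoter motifs between variable and stable genes was void, because RefSeq promoters matched 73.1% of the genes that passed the filter and 64.3% of the variable ones, under the 80% needed. The scripts were tested on simulated data. Depth sets a counting error of 0.086 (median SD, log2 scale) at 10 to 30 CPM, and read pairs carry no molecular identifiers.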

Additional observations from a re-analysis of the deposited data

Results flagged for a closer look

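In 96 measures checked over the 4 tumors (list means, biotype shares, depth and named genes), 8 had 1 tumor farther from the others than the critical value of Dixon's test at 95% allows, where chance, at about 1 in 20, gives 4.8. Of the 8, 7 concern tumor 3, and they are not separate observations: several overlap, and tumor 3 was 0.33 above its 4-tumor mean (median log2 deviation) in the shortest genes and -0.25 from it in the longest. Rplp1 has 499 bases, processed pseudogenes a median of 580 and Malat1 6988, and the part of length in these values was not tested. Its lncRNAs held 0.932% of counts, against 1.14 to 1.16% in the other tumors. Its processed pseudogenes held 0.898% (0.640 to 0.651% in the others) and its transcribed processed pseudogenes 0.143% (0.0895 to 0.0933%). It needed 1007 genes for 50% of its counts (1194 to 1221), and its 100 leading genes held 19.2% (16.7 to 16.9%). Its log2 CPM was 10.5 for Rplp1 (9.66 to 9.80) and 8.72 for Malat1 (9.85 to 10.03). The islet genes averaged 2.10 on the log2 CPM scale in tumor 2 and -2.61 to -2.33 elsewhere.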

How the results depend on the processing

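Each alternative changed 1 choice, except that the deposited FPKM also brought a pseudocount of 0.1 and no TMM scaling. The count of variable genes, 574, moved to 213 when every tumor had to have 10 counts and to 2019 with no filter beyond 1 count, and stayed between 460 and 633 under other scalings, prior counts, gene classes, the deposited FPKM and the removal of 6 tissue lists. Leaving out 1 tumor gave 461 to 662, the lowest without tumor 3, and 379 of the 574 were still variable then. The count of stable genes, 2605, lay between 2563 and 2988 under the planned scalings and filters. It was 2636 to 5220 with 1 tumor left out, the highest without tumor 3. Chosen after the data were seen, removal of the length trend gave 3530, and a mean CPM of at least 100 gave 705. The median SD, 0.26, was 0.19 without tumor 3 and 0.38 with no filter. By FPKM in place of counts, 615 genes in place of a mean of 1154 held 50%, the 100 leading genes held 26.8% in place of 17.4%, and protein-coding genes 91.1% in place of 97.1%. Leaving out 1 tumor gave 1132 to 1203 genes, 16.7 to 17.6% and 97.0 to 97.2%. No paired analysis was possible because the 4 tumors form 1 group. With 4 tumors, spreads below the counting error cannot be ranked.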
